A study of Mus musculus with 8 samples.

Results

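The genes described here are 10 genes of the osteogenic lineage, *Alpl*, *Enpp1*, *Runx2*, *Sp7*, *Dlx5*, *Msx1*, *Msx2*, *Spp1*, *Ibsp* and *Bglap*, taken by name from the 31053 genes of the count files. They were measured in fibro/adipogenic progenitors (FAPs), the mesenchymal cells that lie between the fibres of skeletal muscle, purified from hind limb muscles of *mdx* mice (strain C57BL/10ScSn-Dmdmdx/J, 45 days old), which lack dystrophin. Cells with CD45 or CD31 were removed with magnetic beads, and FAPs were then sorted by flow cytometry as Integrin alpha-7-negative, SCA-1-positive cells and separated by the amount of SCA-1 on their surface into SCA1-High-FAPs (n = 4) and SCA1-Low-FAPs (n = 4). Both cell states were grown for 5 days in medium with 20% fetal bovine serum before RNA was extracted for 3′ end sequencing (QuantSeq). Both groups carried the *mdx* mutation, so neither is a healthy reference, and the RNA is that of cells after culture. The labels do not tie equal replicate numbers to 1 mouse. No osteogenic medium was part of the culture.

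Bone formation follows a known hierarchy. RUNX2 and then SP7 (Osterix) commit a mesenchymal cell to the osteoblast lineage, the homeobox factors DLX5, MSX1 and MSX2 act with and upstream of them as effectors of BMP signalling, and the committed cell secretes the matrix proteins osteopontin (*Spp1*), bone sialoprotein (*Ibsp*) and osteocalcin (*Bglap*). Mineral is deposited where inorganic phosphate outweighs pyrophosphate, which blocks crystal growth. Tissue-nonspecific alkaline phosphatase (*Alpl*) cleaves pyrophosphate, and the membrane enzyme ENPP1 makes it. Muscle FAPs are known as a cell source of heterotopic bone, and alkaline phosphatase is in use as a marker of mesenchymal cells in muscle.

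The libraries held 1880561 to 3985656 counts assigned to genes, so that 3 counts corresponded to 0.792 to 1.63 CPM, the count scaled to library size, in a single library. *Ly6a*, which encodes SCA-1, went against the sort: its mRNA was 711 ± 184 CPM in the SCA1-High libraries against 1087 ± 58.8 CPM in the SCA1-Low libraries (SD, n = 4 each), with a log2 fold change of 0.61 (SE 0.17, adjusted p = 0.0341, edgeR quasi-likelihood test with Benjamini-Hochberg adjustment). The groups are named below by their sort labels, and the directions refer to the libraries so labelled. That call was lost in 7 of the 8 fits that left out 1 library, all but the one without SCA1-High replicate 4, with adjusted p from 0.0514 to 0.0947. All 7 FAP markers were expressed (summed level 1645 to 2337 CPM in SCA1-High-FAPs and 1896 to 2087 in SCA1-Low-FAPs), among them *Pdgfra* at 223 ± 52.3 and 168 ± 14.2 CPM (SD, n = 4 each). Of the 7, 3 were called (7.68% of all genes tested): *Ly6a* and *Thy1* were higher in SCA1-Low-FAPs and *Dcn* was higher in SCA1-High-FAPs. *Thy1* was at 270 ± 28.9 and 429 ± 65.7 CPM (SD, n = 4 each; log2 fold change 0.67, SE 0.15, adjusted p = 0.0105, edgeR). The myogenic factors *Pax7*, *Myf5*, *Myod1* and *Myog* had 0 counts in all 8 libraries, and the 7 myogenic markers summed to 0 to 6.59 CPM in SCA1-High-FAPs and 0 to 15.3 in SCA1-Low-FAPs. The 6 endothelial markers summed to 1.47 to 7.10 and 0.483 to 7.39 CPM, and *Tie1* and *Emcn* were at 0. The 7 leucocyte markers summed to 25.3 to 48.0 CPM in SCA1-High-FAPs and 12.5 to 19.4 in SCA1-Low-FAPs, and *Lyz2* had the highest mean of the 7 (log2 fold change -1.42, SE 0.34, adjusted p = 0.0153 in edgeR, lost with adjusted p of 0.053 and 0.056 without replicate 1 of SCA1-High-FAPs or of SCA1-Low-FAPs), while *Adgre1* and *Itgam* were at 0 and *Ptprc* had 1 count in all. *Csf1r*, of the same list and not tested, was at 3.32 ± 1.30 and 5.48 ± 3.34 CPM (SD, n = 4 each), and in replicate 1 of SCA1-Low-FAPs it exceeded *Lyz2* (10.2 against 6.28 CPM). The 4 Schwann cell markers summed to 9.90 to 19.0 and 5.45 to 8.70 CPM, and the 5 pericyte markers to 18.5 to 35.3 and 16.2 to 39.1. The 2 tested pericyte markers were called in opposite directions: *Cspg4* (NG2) was higher in SCA1-Low-FAPs (log2 fold change 2.40, SE 0.67, adjusted p = 0.0415, edgeR) and *Notch3* higher in SCA1-High-FAPs (-1.54, SE 0.46, adjusted p = 0.0487). *Cspg4* kept the call without replicate 1 of SCA1-High-FAPs or replicate 3 of SCA1-Low-FAPs and lost it in the other 6 fits without 1 library (0.0865 to 0.126), and *Notch3* kept it without replicate 3 of SCA1-Low-FAPs and lost it in the other 7 (0.0741 to 0.138). The 7 cartilage and tendon markers summed to 322 to 451 and 304 to 398 CPM, most of it *Sox9* (log2 fold change -0.31, SE 0.15, adjusted p = 0.267). In that list *Col2a1*, the collagen of cartilage, was called, with 0, 0, 7 and 0 counts in SCA1-High-FAPs and 24, 23, 18 and 42 in SCA1-Low-FAPs (log2 fold change 3.70, SE 0.88, adjusted p = 0.0156, edgeR). This was the largest positive fold change among the 10181 genes tested, and it lost the call without replicate 1 or 4 of SCA1-Low-FAPs (0.0531 and 0.0548). *Scx*, a tendon factor, was not tested and had 0 counts in every SCA1-High library and 17, 3, 7 and 3 in the SCA1-Low libraries. *Tnmd*, of the same list, went the other way, at 24.0 ± 14.8 and 8.20 ± 4.72 CPM (SD, n = 4 each) without overlap. It missed the threshold (log2 fold change -1.55, SE 0.47, adjusted p = 0.053, edgeR). Its adjusted p was 0.0267 in DESeq2, and in edgeR 0.0061 with no filter on low counts and 0.0455 with a replicate block. The part of these cell-type markers in the differences of the lineage genes was not tested. The 5 osteoclast markers were *Ctsk* for the greater part (59.6 ± 6.0 and 59.3 ± 19.0 CPM, SD, n = 4 each), and *Ocstamp* and *Dcstamp* were at 0.

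Across the transcriptome 10181 genes had enough counts to be tested and 782 of them, 7.68%, passed an adjusted p of 0.05 with an absolute log2 fold change over 0.5 (edgeR quasi-likelihood test with Benjamini-Hochberg adjustment), 3.32% with more in SCA1-Low-FAPs and 4.36% with more in SCA1-High-FAPs. All log2 fold changes here divide SCA1-Low-FAPs by SCA1-High-FAPs, so that a negative value is a higher level in SCA1-High-FAPs. Of the 10 osteogenic lineage genes, 7 were tested and *Bglap*, *Ibsp* and *Msx2* had too few counts. The test called 1 of the 7, *Alpl*, for the higher level in the SCA1-High libraries. DESeq2 called 1065 of the 15873 genes with a count (6.71%), and a fit with a replicate block called 697 of 10181 (6.85%). Both called *Alpl* alone of the 10, and DESeq2 gave *Bglap* and *Msx2* no adjusted p. The median log2 fold change of the 7 was -0.05, with a range from -1.09 to 1.45, against a median of 0.0003 over all genes tested. The groups did not overlap for 1 of the 7 genes, again *Alpl*, and for 14.1% of all genes tested.

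*Alpl* (ENSMUSG00000028766, chr4:137741733-137796384, minus strand, GRCm38) encodes the alkaline phosphatase that releases phosphate from pyrophosphate at the cell surface. It stood at 211, 263, 246 and 315 CPM in the 4 SCA1-High-FAP libraries and at 79.8, 168, 200 and 92.1 CPM in the 4 SCA1-Low-FAP libraries. The lowest SCA1-High library thus lay above the highest SCA1-Low library, replicate 3, by a small margin, while replicates 1 and 4 of SCA1-Low-FAPs were far lower. The means were 259 ± 43.1 and 135 ± 58.1 CPM (SD, n = 4 each), a 1.92-fold higher level in SCA1-High-FAPs (log2 fold change -0.94, SE 0.26, 95% interval -1.51 to -0.38, adjusted p = 0.0441, edgeR). By adjusted p *Alpl* was number 739 of the 788 tested genes with an adjusted p under 0.05. The fold change kept its sign in each of the 8 fits without 1 library, between -1.21 and -0.75, but the adjusted p was over 0.05 in 7 of them (0.0567 to 0.109, edgeR), those without any 1 of the SCA1-High libraries or without replicate 1, 2 or 4 of SCA1-Low-FAPs. Without replicate 3 of SCA1-Low-FAPs it was 0.0033. The leucocyte and Schwann cell marker sums above were also higher in every SCA1-High library than in any SCA1-Low library, and their part in the *Alpl* difference was not tested. In bulk RNA a larger number of cells with a transcript and more transcript per cell cannot be told apart.

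**Figure D1:**
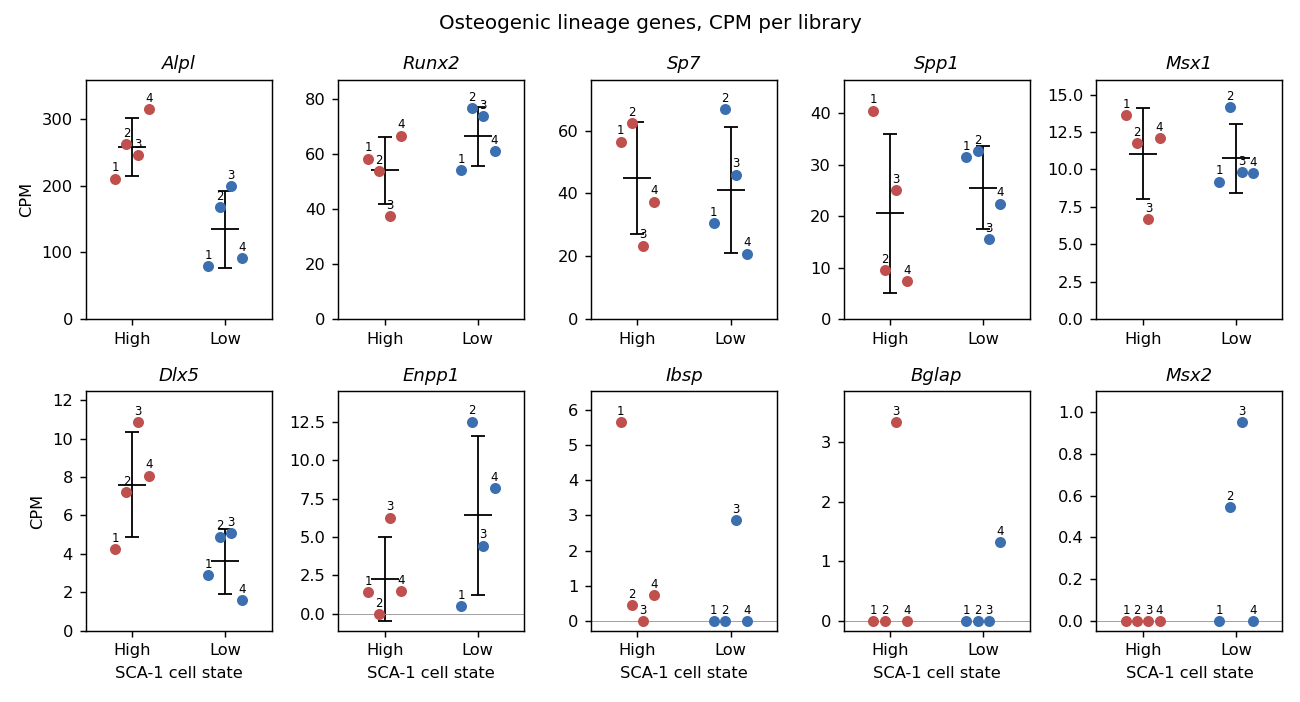
CPM of the 10 osteogenic lineage genes in each library (points, numbered by replicate), with 1 panel and 1 linear axis per gene, red for SCA1-High-FAPs, blue for SCA1-Low-FAPs; horizontal bars are the group means and vertical bars the SD (n = 4), drawn for the 7 genes tested, and the SD of *Enpp1* in SCA1-High-FAPs reaches below 0. The groups are apart for *Alpl*, between 200 and 211 CPM, and overlap for the other 9 genes.

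The 3′ reads are counted per gene and do not tell the *Alpl* transcripts with different starts apart. RefSeq annotates 2 starts, and the 250 bases before each (GRCm38.p6, both read on the minus strand, 5′ to 3′) are shown because they differ in base composition: the window of the first start has 68.4% G and C and 2 overlapping GC boxes (GGGCGG, the letters bound by SP factors, in capitals), and that of the second start has 56.0% and no such match.
Alpl start 1, chr4:137796385-137796634: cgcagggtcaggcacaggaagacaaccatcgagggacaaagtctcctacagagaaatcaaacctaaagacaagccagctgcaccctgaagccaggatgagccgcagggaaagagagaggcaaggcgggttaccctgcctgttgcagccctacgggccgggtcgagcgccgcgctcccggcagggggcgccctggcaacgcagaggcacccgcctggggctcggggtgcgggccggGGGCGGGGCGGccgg
Alpl start 2, chr4:137766476-137766725: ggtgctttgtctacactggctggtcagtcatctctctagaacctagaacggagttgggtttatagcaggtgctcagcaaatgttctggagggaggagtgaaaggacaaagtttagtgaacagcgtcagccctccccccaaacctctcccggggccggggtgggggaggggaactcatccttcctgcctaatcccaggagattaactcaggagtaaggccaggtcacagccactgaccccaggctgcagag

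*Enpp1* (ENSMUSG00000037370, chr10:24637914-24712159, minus strand), whose product makes the pyrophosphate that ALPL cleaves, was a scarce transcript. It had 3, 0, 15 and 4 counts in SCA1-High-FAPs and 1, 23, 14 and 31 counts in SCA1-Low-FAPs, which is 1.41, 0, 6.26 and 1.47 CPM against 0.483, 12.5, 4.44 and 8.18 CPM. Both groups held libraries near 0 and libraries above 4 CPM, and they overlapped. The means of 2.29 ± 2.74 and 6.41 ± 5.15 CPM (SD, n = 4 each) gave a log2 fold change of 1.45 (SE 0.88, 95% interval -0.41 to 3.31, adjusted p = 0.379, edgeR), an interval that holds both no difference and a difference of 9.90-fold. The spread between libraries was nearly as large as the mean in both groups or larger.

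*Runx2* (ENSMUSG00000039153, chr17:44495987-44814797, minus strand), the factor that commits cells to the osteoblast lineage, was found in every library. Its levels were 58.4, 53.8, 37.6 and 66.7 CPM in SCA1-High-FAPs against 54.1, 76.8, 73.9 and 61.0 CPM in SCA1-Low-FAPs. The groups overlapped, with the lowest level in replicate 3 of SCA1-High-FAPs. The means were 54.1 ± 12.3 and 66.5 ± 10.7 CPM (SD, n = 4 each), a log2 fold change of 0.29 (SE 0.21, 95% interval -0.15 to 0.74, adjusted p = 0.472, edgeR). The gene overlaps *Supt3* and antisense transcripts on the plus strand, and since the strand setting of the counting is not given in the sources used here, reads of these partners may have entered the count.

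*Sp7* (ENSMUSG00000060284, chr15:102356606-102367182, minus strand), which acts after *Runx2* in osteoblast commitment, was also found in every library. It measured 56.5, 62.4, 23.4 and 37.4 CPM in SCA1-High-FAPs against 30.5, 67.0, 46.0 and 20.9 CPM in SCA1-Low-FAPs. Within each group the highest library exceeded the lowest by more than the group means differed, at 44.9 ± 17.9 and 41.1 ± 20.1 CPM (SD, n = 4 each). The log2 fold change was -0.14 (SE 0.36, 95% interval -0.91 to 0.63, adjusted p = 0.880, edgeR), and it turned positive without replicate 2 of SCA1-High-FAPs (0.07) or replicate 4 of SCA1-Low-FAPs (0.08).

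Of the homeobox factors, *Dlx5* (ENSMUSG00000029755, chr6:6877805-6882085, minus strand) had 9, 16, 26 and 22 counts in SCA1-High-FAPs and 6, 9, 16 and 6 counts in SCA1-Low-FAPs. This is 4.24, 7.23, 10.9 and 8.07 CPM against 2.90, 4.90, 5.08 and 1.58 CPM. Replicate 1 of SCA1-High-FAPs lay below replicates 2 and 3 of SCA1-Low-FAPs, and the other 3 SCA1-High libraries lay above all SCA1-Low libraries. The log2 fold change of -1.09 (SE 0.57, 95% interval -2.30 to 0.12) was no smaller than that of *Alpl* and did not pass the test (adjusted p = 0.293, edgeR), with means of 7.60 ± 2.72 and 3.62 ± 1.68 CPM (SD, n = 4 each). It kept its sign in all 8 fits without 1 library (-1.34 to -0.82).

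*Msx1* (ENSMUSG00000048450, chr5:37820485-37824583, minus strand), a factor of undifferentiated mesenchyme and of BMP responses, showed 13.7, 11.8, 6.68 and 12.1 CPM in SCA1-High-FAPs against 9.18, 14.2, 9.83 and 9.77 CPM in SCA1-Low-FAPs. The means of 11.1 ± 3.03 and 10.7 ± 2.30 CPM (SD, n = 4 each) lay closer together than those of the other 6 lineage genes tested. The log2 fold change was -0.05 (SE 0.39, 95% interval -0.88 to 0.78, adjusted p = 0.966, edgeR), and it was above 0 without replicate 1 or 4 of SCA1-High-FAPs (0.07 and 0.0009) or replicate 1 of SCA1-Low-FAPs (0.02). *Msx2* (ENSMUSG00000021469, chr13:53466884-53473074, minus strand), its paralog, was at the limit of detection. It had 0 counts in all SCA1-High libraries, which allows up to 0.317 CPM over that group, and 0, 1, 3 and 0 counts in SCA1-Low-FAPs.

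Among the matrix proteins, *Spp1* (ENSMUSG00000029304, chr5:104435118-104441050, plus strand), which encodes the mineral-binding phosphoprotein osteopontin, varied widely between SCA1-High libraries. It measured 40.5, 9.49, 25.1 and 7.33 CPM in SCA1-High-FAPs against 31.4, 32.7, 15.5 and 22.4 CPM in SCA1-Low-FAPs. Both the highest and the lowest level came from SCA1-High-FAPs, which thus enclosed the other group. The means were 20.6 ± 15.4 and 25.5 ± 8.06 CPM (SD, n = 4 each), and the log2 fold change was 0.30 (SE 0.46, 95% interval -0.68 to 1.29, adjusted p = 0.778, edgeR). Leaving out 1 library moved it from 0.02 to 0.87.

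The genes of late bone matrix had few counts. *Ibsp* (ENSMUSG00000029306, chr5:104299171-104311469, plus strand), bone sialoprotein, had 12, 1, 0 and 2 counts in SCA1-High-FAPs and 0, 0, 9 and 0 counts in SCA1-Low-FAPs, so that most counts of each group came from 1 library. *Bglap* (ENSMUSG00000074483, chr3:88383501-88384464, minus strand), osteocalcin, had 8 counts in replicate 3 of SCA1-High-FAPs, 5 counts in replicate 4 of SCA1-Low-FAPs and 0 in the other 6 libraries. Its count is uncertain, since *Bglap* has the near-identical paralogs *Bglap2* and *Bglap3* and reads that map to several genes were not assigned. *Bglap2* had 2, 0, 0 and 15 counts in SCA1-High-FAPs and 0, 0, 0 and 1 in SCA1-Low-FAPs, and *Bglap3* had 0 throughout. With no filter on low counts *Ibsp*, *Bglap* and *Msx2* entered the fit with adjusted p of 0.727, 0.768 and 0.375 (edgeR).

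Promoter windows of 250 bases were on hand from RefSeq for 8 of the 10 genes, all but *Sp7* and *Dlx5*, as 10 windows since *Alpl* and *Spp1* each have 2 starts. The Runx core motif TGTGGT, searched on both strands, was in 4 of the 10 windows, against 14.0% of the 32851 windows of all genes, and a GC box was also in 4, against 32.7%. The *Runx2* window held the core 80 bases before the start, and those of *Bglap*, *Spp1* (start 1) and *Enpp1* held it 132, 128 and 144 bases before. The 3 windows of *Bglap*, *Spp1* and *Enpp1* are shown 5′ to 3′ on the gene's strand (GRCm38.p6), since they set a Runx core beside genes that differed widely in level, from 0.583 to 23.1 CPM over the 8 libraries. The core reads ACCACA in all 3, that is, TGTGGT on the other strand, and it stands in capitals, as does the GC box of *Enpp1*. The match is a description of the sequence and was not tested for binding.
Bglap, chr3:88384467-88384716, minus strand: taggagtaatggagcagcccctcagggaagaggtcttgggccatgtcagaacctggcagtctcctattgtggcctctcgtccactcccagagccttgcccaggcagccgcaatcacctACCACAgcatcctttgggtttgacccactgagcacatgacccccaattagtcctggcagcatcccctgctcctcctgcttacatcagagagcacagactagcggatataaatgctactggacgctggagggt
Spp1 start 1, chr5:104434861-104435110, plus strand: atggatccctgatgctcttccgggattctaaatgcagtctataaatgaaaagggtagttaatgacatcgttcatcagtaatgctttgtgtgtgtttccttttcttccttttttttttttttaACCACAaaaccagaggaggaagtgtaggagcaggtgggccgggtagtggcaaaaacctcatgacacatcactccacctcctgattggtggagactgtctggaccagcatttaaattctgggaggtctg
Enpp1, chr10:24712160-24712409, minus strand: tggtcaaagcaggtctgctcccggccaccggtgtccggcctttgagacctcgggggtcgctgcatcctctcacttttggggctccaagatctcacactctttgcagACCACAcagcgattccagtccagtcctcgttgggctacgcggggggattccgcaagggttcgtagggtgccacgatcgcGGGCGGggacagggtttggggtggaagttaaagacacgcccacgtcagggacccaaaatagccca

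Since a 3′ library gives reads from the transcript's end only, CPM does not grow with transcript length and the levels of the genes can be ordered on that scale. *Alpl* led with a mean of 197 CPM over the 8 libraries and was above *Runx2* (60.3 CPM) in 8 of 8. *Runx2* was above *Sp7* (43.0 CPM) in 7 of 8 libraries. *Spp1* (23.1 CPM) followed below *Sp7* in 5 of 8 libraries and above *Msx1* (10.9 CPM) in 6 of 8, and their ranges overlapped. *Msx1* was above *Dlx5* (5.61 CPM) in 7 of 8 libraries and *Dlx5* above *Enpp1* (4.35 CPM) in 6 of 8, with overlapping ranges. *Ibsp* (1.21 CPM), *Bglap* (0.583 CPM) and *Msx2* (0.187 CPM) closed the order, and at their counts it was not resolved among the 3. *Alpl*, *Runx2* and *Sp7* were above *Ibsp* and *Bglap* in all 8 libraries, whichever the cell state. Summed over the 10 genes the level was 360 to 449 CPM in SCA1-High-FAPs and 208 to 376 in SCA1-Low-FAPs.

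**Figure D2:**
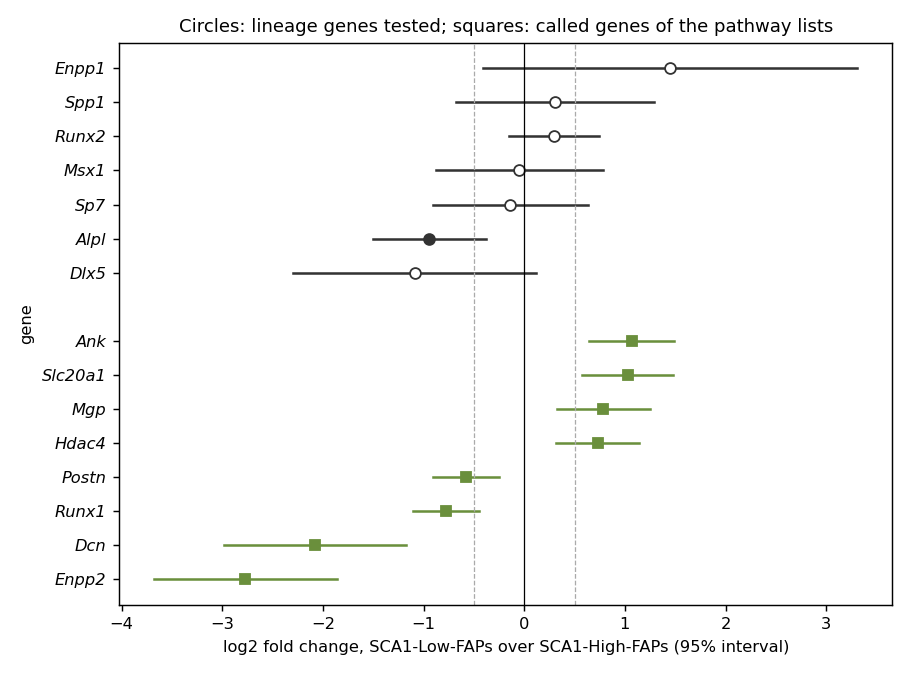
Log2 fold change (SCA1-Low-FAPs divided by SCA1-High-FAPs) with its 95% interval (edgeR, n = 4 each) for the 7 osteogenic lineage genes tested (circles, filled where called) and for the 8 called genes of the osteogenic pathway lists (squares); dashed lines mark 0.5 and -0.5. *Alpl* is the one lineage gene whose interval, -1.51 to -0.38, leaves out 0, while that of *Enpp1* spans -0.41 to 3.31.

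The wider pathway was described by 5 lists with 53 genes besides the 10, of which 30 were tested, 4 were called with more in SCA1-Low-FAPs, 4 with more in SCA1-High-FAPs, and 10 had 0 counts throughout. Their median log2 fold change was 0.04, and over all genes tested 7.68% were called, 3.32% with more in SCA1-Low-FAPs and 4.36% with more in SCA1-High-FAPs, beside which the counts of each list are to be read. DESeq2 and the fit with no filter on low counts called 10 of the 53, the same 8 and also *Csf1* and *Zbtb16*. Among 15 osteogenic regulators 9 were tested, 1 was called in each direction and the median log2 fold change was 0.0027. *Runx1*, the Runx factor best known from blood and also present in mesenchyme, was higher in SCA1-High-FAPs, at 408, 529, 558 and 445 CPM against 234, 304, 329 and 264 CPM in SCA1-Low-FAPs. The groups lay apart, and the log2 fold change was -0.78 (SE 0.15, adjusted p = 0.00482, edgeR), called in all 8 fits without 1 library. *Runx1* was more abundant than *Runx2* in every library, by a ratio of 6.66 to 14.8 in SCA1-High-FAPs and 3.97 to 4.45 in SCA1-Low-FAPs. *Cbfb*, the common partner of Runx proteins, measured 47.5 ± 21.5 and 49.2 ± 12.8 CPM (SD, n = 4 each). *Hdac4*, a histone deacetylase that restrains RUNX2, was higher in SCA1-Low-FAPs (71.1 ± 7.75 against 42.8 ± 6.63 CPM, SD, n = 4 each), with a log2 fold change of 0.73 (SE 0.20, adjusted p = 0.0284, edgeR). That call was lost in 5 of 8 fits, those without replicate 1, 2 or 3 of SCA1-High-FAPs or replicate 1 or 4 of SCA1-Low-FAPs (adjusted p 0.0534 to 0.118). *Zbtb16*, a zinc finger factor, had 79 counts over the SCA1-High libraries against 11 over the SCA1-Low libraries and missed the threshold (log2 fold change -2.79, SE 0.93, adjusted p = 0.0768, edgeR), which it passed in DESeq2 (0.0452), with no filter (0.0236) and without replicate 2 of SCA1-Low-FAPs (0.0104). The 6 tested targets of BMP-SMAD signalling had no call, with log2 fold changes from -0.18 to 0.22, nor had the 2 tested osteoclast signals *Tnfsf11* (-0.15, SE 0.58) and *Csf1* (0.62, SE 0.21), with adjusted p of 0.926 and 0.0889. *Csf1*, a growth factor of osteoclast precursors and macrophages, passed in DESeq2 (0.0435), with no filter (0.0115) and without replicate 1 of SCA1-High-FAPs (0.00927).

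Of 14 bone matrix genes 7 were tested, 2 were called, both higher in SCA1-High-FAPs, and the median log2 fold change was -0.36. The osteocyte and mineral genes *Dmp1*, *Mepe*, *Phex* and *Sost* had 0 counts in all 8 libraries, as had *Bglap3*. The general matrix genes were abundant, with *Col1a1* at 7559 ± 1520 and 6578 ± 1433 CPM (SD, n = 4 each) and *Col1a2* at 10953 ± 2502 and 8547 ± 2641 CPM, and neither was called (log2 fold change -0.20 and -0.36, adjusted p = 0.587 and 0.394). *Sparc* (osteonectin), at 15683 ± 3002 and 11412 ± 751 CPM (SD, n = 4 each), was not called either (log2 fold change -0.46, adjusted p = 0.0909, edgeR). DESeq2 gave an adjusted p of 0.039 but no call, since its log2 fold change of -0.46 was within the limit of 0.5. *Dcn* (decorin), a collagen-binding proteoglycan, had a log2 fold change of -2.08 (SE 0.39, adjusted p = 0.0167, edgeR), with 366 to 1037 CPM in SCA1-High-FAPs and 89.8 to 209 CPM in SCA1-Low-FAPs. It lost the call without replicate 2 or 4 of SCA1-Low-FAPs (adjusted p 0.0504 and 0.0537). *Postn* (periostin) followed with -0.58 (SE 0.16, adjusted p = 0.0286), lost in 5 of 8 fits, those without replicate 1, 3 or 4 of SCA1-High-FAPs or replicate 1 or 4 of SCA1-Low-FAPs (0.0513 to 0.102).

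The genes that handle phosphate and pyrophosphate, the substrates and products of ALPL and ENPP1, had 4 calls among 6 tested of 14, 3 with more in the SCA1-Low libraries (7.68% and 3.32% of all genes tested), and a median log2 fold change of 0.90. *Ank*, which moves pyrophosphate out of the cell, was at 34.4, 40.7, 38.0 and 38.1 CPM in SCA1-High-FAPs against at 73.5, 76.2, 64.4 and 102 CPM in SCA1-Low-FAPs. The SCA1-High libraries lay close together and all below the SCA1-Low libraries, with a log2 fold change of 1.07 (SE 0.20, 95% interval 0.64 to 1.49, adjusted p = 0.00332, edgeR). *Ank* overlaps *Otulin* on the opposite strand. The called genes *Slc20a1*, *Enpp2*, *Runx1* and *Hdac4* also overlap annotated transcripts on their opposite strand. Since the strand setting of the counting is not given in the sources used here, reads of these partners may have entered the counts. *Slc20a1*, a phosphate importer, was at 66.9, 60.1, 41.8 and 46.2 CPM against 129, 92.6, 79.3 and 136 CPM, again apart (log2 fold change 1.03, SE 0.22, adjusted p = 0.00743). *Mgp*, matrix Gla protein, an inhibitor of calcification, was at 61.8 ± 17.3 and 106 ± 19.8 CPM (SD, n = 4 each; log2 fold change 0.78, SE 0.22, adjusted p = 0.0357). This call was lost in 6 of 8 fits, those without replicate 2, 3 or 4 of SCA1-High-FAPs or replicate 1, 2 or 4 of SCA1-Low-FAPs (0.0515 to 0.135), whereas *Ank* and *Slc20a1* were called in all 8.

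*Enpp2*, a relative of *Enpp1* that encodes autotaxin and makes lysophosphatidic acid rather than pyrophosphate, was higher in SCA1-High-FAPs, at 63.1, 43.9, 58.0 and 18.3 CPM against 5.32, 10.4, 8.88 and 2.90 CPM. The groups did not overlap, and the level was 6.82-fold higher (log2 fold change -2.77, SE 0.43, adjusted p = 0.00126, edgeR), called in all 8 fits without 1 library. *Phospho1*, the phosphatase of matrix vesicles, and the other alkaline phosphatases *Alppl2*, *Akp3* and *Alpi* had 0 counts in all libraries, so *Alpl* was the alkaline phosphatase gene detected. The ratio of *Alpl* to *Ank* within a library was 6.14, 6.46, 6.48 and 8.25 in SCA1-High-FAPs and 1.09, 2.20, 3.10 and 0.902 in SCA1-Low-FAPs. It was above 6 in every SCA1-High library and at most 3.10 in the SCA1-Low libraries, and this ratio was chosen after the values of both genes were seen.

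**Figure D3:**
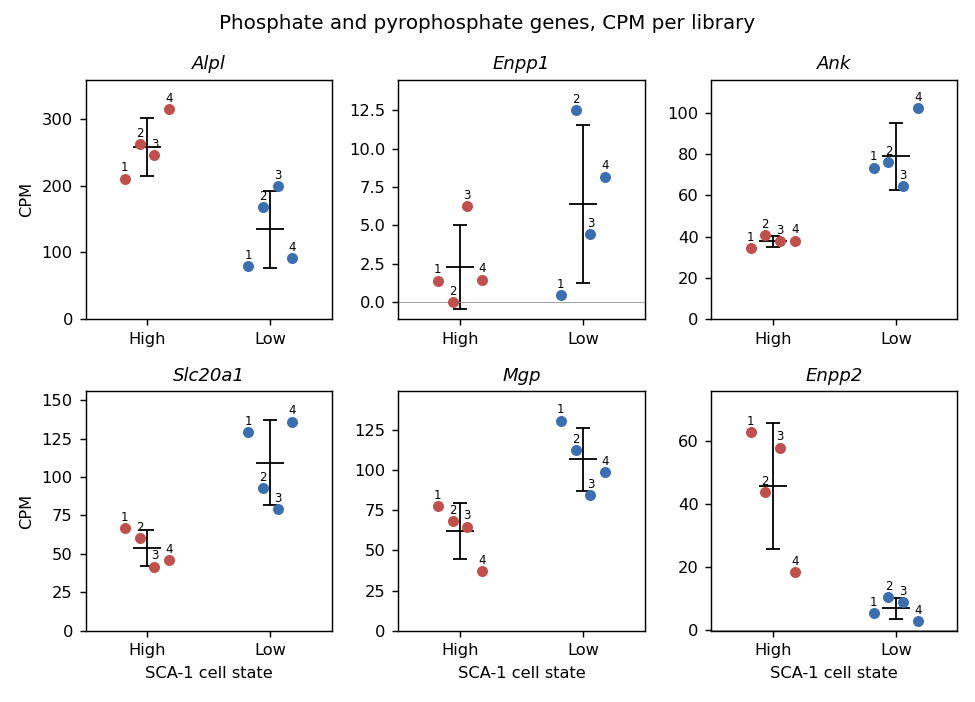
CPM per library (points, numbered by replicate) of *Alpl*, *Enpp1* and the 4 called genes of phosphate and pyrophosphate handling in SCA1-High-FAPs (red) and SCA1-Low-FAPs (blue), with group mean and SD (n = 4), 1 linear axis per gene. *Alpl* and *Enpp2* lie higher in SCA1-High-FAPs and *Ank*, *Slc20a1* and *Mgp* higher in SCA1-Low-FAPs without overlap, while *Enpp1* overlaps.

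**Figure D4:**
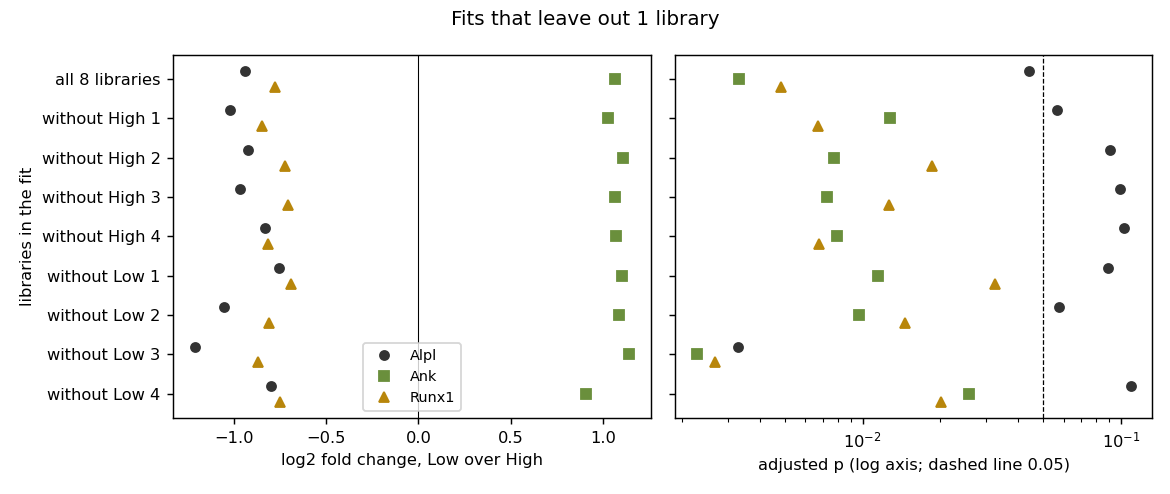
Log2 fold change (left, linear axis) and adjusted p (right, log axis, dashed line at 0.05; edgeR) of *Alpl* (circles), *Ank* (squares) and *Runx1* (triangles) with all 8 libraries and with each library left out. The adjusted p of *Alpl* is on the right of the line in 7 of the 8 fits without 1 library, up to 0.109, and those of *Ank* and *Runx1* stay on its left in all 8.

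The genes whose pattern over the 8 libraries was most like that of *Alpl* were ranked by the root mean square difference of log2 CPM, each gene centred on its own mean, among 10180 other tested genes with a median difference of 0.773. *Arhgap28* was nearest at 0.123, with 25.5 ± 5.51 CPM for SCA1-High-FAPs against 13.7 ± 7.30 CPM for SCA1-Low-FAPs (SD, n = 4 each). *Smarca1*, an ISWI chromatin remodeller, followed at 0.125, with 46.1 ± 7.57 and 22.1 ± 10.0 CPM. *Arid5a*, an RNA-binding protein, came next at 0.167, with 13.0 ± 0.623 and 7.13 ± 3.14 CPM. Their fitted log2 fold changes of -0.89, -1.07 and -0.87 had adjusted p of 0.153, 0.0356 and 0.255 (edgeR). The genes were chosen by their pattern over these same libraries, so fold changes near that of *Alpl* follow from the choice. *Smarca1* was the one called, and it lost the call without replicate 2 or 4 of SCA1-High-FAPs or replicate 1 or 4 of SCA1-Low-FAPs (0.0762 to 0.123).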

How the data were processed

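Libraries of 8 samples, 4 SCA1-High-FAPs and 4 SCA1-Low-FAPs, were prepared with a 3′ end kit from the RNA of FAPs sorted from *mdx* mice. The authors deposited raw read counts per Ensembl gene, 1 file per sample; the submitters' processing notes name STAR, HTSeq and mm10, and reads mapping to several genes were left unassigned. Entries for no feature were left out of the library sizes. They made up 9.35 to 10.2% of each file's total in SCA1-High-FAPs and 7.87 to 8.83% in SCA1-Low-FAPs. Reads that did not map uniquely made up 37.5 to 39.7% and 40.8 to 43.3%. The groups overlapped in neither measure, and its part in the differences between them was not tested. Gene names and coordinates were matched by Ensembl ID to GENCODE on GRCm38 (31011 of 31053). Counts were analysed with edgeR 4.0.16 (R 4.3.3): genes with enough counts (filterByExpr, minimum 10 and 15 in total), TMM factors, a robust quasi-likelihood fit of the 2 groups and Benjamini-Hochberg adjustment over the 10181 genes tested. Genes at an adjusted p under 0.05 and an absolute log2 fold change over 0.5 were called. CPM used TMM-scaled library sizes. The SE is the size of the log2 fold change over the square root of F. Alternatives were DESeq2 1.42.0, RLE factors, other filters, thresholds, a non-robust fit, a replicate block and each library left out. The fits were also tested on data simulated from the fitted levels and spread of these libraries. There edgeR called 88 of 100 genes changed 4-fold and 47 of 100 changed 2-fold. The changed genes were drawn above a minimum mean level, which left out scarce genes such as *Enpp1*. The labels speak of 4 biological replicates, and p-values measure the spread between these samples. Named were all 10 genes, each called gene of the pathway lists and the 3 genes nearest to *Alpl*. The most abundant marker of the FAP, leucocyte, cartilage and tendon, and osteoclast lists was also named. That of the myogenic, endothelial and Schwann cell lists was not. *Bglap2*, *Cbfb*, *Col1a1*, *Col1a2*, *Sparc*, *Tnfsf11*, *Csf1*, *Zbtb16*, *Pdgfra*, *Thy1*, *Csf1r*, *Cspg4*, *Notch3*, *Col2a1*, *Scx*, *Tnmd* and the genes at 0 were named after their values were seen. The 10 genes and all lists were chosen with earlier results of these data known. Promoter windows and starts are from RefSeq (GRCm38.p6). Floors and counting statements cover counting error only.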

Additional observations from a re-analysis of the deposited data

Results flagged for a closer look

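In each group of 4 libraries the level farthest from the others was compared with Dixon's critical value for the gap to the nearest library over the whole range. That value gives about 1 in 20 for normally distributed levels, and a group with counts in only 1 library passes it by construction. Over 34 genes and 67 groups 11 values stood apart, a number that cannot be set against that rate. In 4 of these cases few counts in 1 library made up all or most of a group: *Bglap* at 3.34 CPM (8 counts) in replicate 3 of SCA1-High-FAPs, *Bglap* at 1.32 CPM (5 counts) in replicate 4 of SCA1-Low-FAPs, *Ibsp* at 5.65 CPM (12 counts) in replicate 1 of SCA1-High-FAPs, and *Ibsp* at 2.86 CPM (9 counts) in replicate 3 of SCA1-Low-FAPs. *Msx1* stood apart in replicate 2 of SCA1-Low-FAPs at 14.2 CPM (26 counts), above the other 3 libraries of its group. *Sparc* at 12529 CPM and *Sox9* at 366 CPM both stood above their group in replicate 3 of SCA1-Low-FAPs, which was also the SCA1-Low library with the highest *Alpl*. *Col2a1* had all its SCA1-High counts in replicate 3 (2.92 CPM, 7 counts), *Notch3* was lowest in replicate 4 of SCA1-High-FAPs at 9.90 CPM, and replicate 2 of SCA1-Low-FAPs stood above its group for *Csf1* (1511 CPM) and *Zbtb16* (4.90 CPM, 9 counts).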

How the results depend on the processing

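*Alpl* was the 1 lineage gene called under DESeq2, RLE factors, no filter, 10 counts in every sample, a non-robust fit and no limit on the fold change. At an adjusted p of 0.01 the genes called fell from 782 to 307 and the lineage genes called to 0. Leaving out 1 library gave 410 to 1017 genes called (417 without replicate 1 and 410 without replicate 4 of SCA1-Low-FAPs), 0 to 1 lineage genes and 4 to 8 pathway genes (5 without replicate 3 of SCA1-High-FAPs, 5 and 4 without replicates 1 and 4 of SCA1-Low-FAPs), of which 4 to 8 were among the 8 called with all libraries. *Csf1* and *Sparc* entered without replicate 1 of SCA1-High-FAPs and *Zbtb16* without replicate 2 of SCA1-Low-FAPs. In the same fits the log2 fold changes of *Sp7* (-0.46 to 0.0837), *Msx1* (-0.23 to 0.07), *Cbfb* (-0.18 to 0.26) and *Ctsk* (-0.21 to 0.15) changed sign, and that of *Ctsk* was 0.0115 with no filter. *Enpp1* was fitted in 6 of the 8, since it fell below the filter in the others. The cause of these changes was not tested. For libraries with equal replicate numbers, the deviations from the group means correlated at -0.0502 to 0.0067, against -0.28 to 0.25 for unequal numbers. Of the 8 libraries 0 were closest to their own number. With 4 libraries per group this cannot settle whether equal numbers came from the same mice. A fit with the replicate block called 697 genes (6.85%), 1 lineage gene (*Alpl*, adjusted p = 0.0182, edgeR) and 6 pathway genes. Under that block *Hdac4* (0.73, adjusted p = 0.0504, and 0.74 with 0.0686 in DESeq2), *Postn* (-0.60, 0.0518), *Ly6a* (0.65, 0.0573) and *Notch3* (-1.57, 0.0955; also lost with no filter, 0.0867) were no longer called, with log2 fold changes given first. *Enpp1*, *Dlx5*, *Ibsp*, *Bglap* and *Msx2* rest on 0 to 31 counts per library.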
